A study of Mus musculus with 6 samples.

Results

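The genes described here encode the respiratory chain and the ATP synthase of mitochondria. They were chosen by symbol, as all genes beginning with Nduf, Sdha, Sdhb, Sdhc, Sdhd, Uqcr, Cox4i, Cox5, Cox6, Cox7, Cox8 or Atp5, which gave 93 of the 22180 genes measured by a probe set with exactly 1 gene symbol. They comprise 32 genes of complex I, 4 of complex II, 7 of complex III, 19 of complex IV, 17 of the ATP synthase, 12 assembly factors (Ndufaf and Sdhaf symbols) and 2 pseudogenes. Expression was measured on arrays in macrophages of the ear dermis, which were purified by flow cytometry from C57Bl/6 mice aged 2 weeks. All mice were Cx3cr1+/gfp, so that green fluorescent protein replaces 1 copy of the fractalkine receptor gene and reports its activity, and a full wild type is not among the samples. The sorted subsets were CX3CR1high, CX3CR1int and CX3CR1low, with 2 samples each, every sample pooled from 4 mice and the replicates taken from 2 independent litters. Values are log2 array signals of bulk samples, in which fewer cells of a type and less RNA per cell cannot be told apart.

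The respiratory chain passes electrons through the inner mitochondrial membrane and pumps protons as it does so, and the ATP synthase lets them flow back to make ATP. Complex I takes electrons from NADH and complex II from succinate, complex III hands them to cytochrome c and complex IV hands them to oxygen. Complex II is also an enzyme of the tricarboxylic acid cycle, and in macrophages it is known for its part in the metabolic response to bacterial stimuli. Most subunits are encoded in the nucleus, and several of complex IV have alternative isoforms in muscle, testis or hypoxic tissue. The promoters of many such genes are known to hold sites of NRF1, the nuclear respiratory factor, and of the ETS-type factor GABP.

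Signal above the dim level, 4.335 on the log2 scale or the 30th percentile of gene means, was seen for 86 of the 93 genes, and 15529 genes in all were tested. The 7 dim genes were the complex I gene Ndufs5, the complex IV isoform genes Cox7b2, Cox8b and Cox8c, the assembly factor gene Sdhaf3 and the pseudogenes Atp5c1-ps and Uqcrh-ps1. Their values lay between 2.11 (Cox7b2) and 4.73 (Ndufs5) in all samples. A brighter probe set shared by Ndufs5 and its pseudogene, which entered no test, lay between 5.98 and 7.17. Macrophage identity was plain in every sample: the mean log2 signal of 9 macrophage markers, none of them dim, was 10.31 and 10.37 in CX3CR1high, 10.37 and 10.47 in CX3CR1int and 10.42 and 10.30 in CX3CR1low samples. Markers of other skin cells were also present, and the mean of 14 fibroblast markers was 6.52 and 6.65 in CX3CR1high, 6.78 and 6.92 in CX3CR1int and 7.07 and 7.69 in CX3CR1low samples. That of 16 keratinocyte markers was 6.29 and 6.34 in CX3CR1high, 6.28 and 6.52 in CX3CR1int and 6.77 and 7.23 in CX3CR1low samples. That of 7 mast cell markers, 1 of them dim, was 4.60 and 4.55 in CX3CR1high, 5.46 and 5.40 in CX3CR1int and 6.00 and 5.64 in CX3CR1low samples, and the part of these cells in the differences below was not tested. Between CX3CR1high and CX3CR1low cells 2 keratinocyte and 3 mast cell markers were called, all lower in CX3CR1high cells, among them Krt10 at -1.46 (adjusted p = 0.0439) and Cpa3 at -3.37 (adjusted p = 0.00512). In a limma fit with the replicate number as a block, the fibroblast markers Col1a1, Col1a2, Col3a1, Col6a1, Dcn and Pcolce were also called lower. So were the keratinocyte markers Krt17 and Krtdap. Pdgfra, Pdgfrb and the keratinocyte marker Sfn stood higher in CX3CR1high cells and were not called.

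No respiratory chain or ATP synthase gene differed between the subsets by the test, which was limma with Benjamini-Hochberg adjustment over all genes. The smallest adjusted p among the 86 was 0.131 between CX3CR1high and CX3CR1low, 0.404 between CX3CR1high and CX3CR1int, and 0.996 between CX3CR1int and CX3CR1low cells. Over all genes 0.399%, 0.142% and 0.00644% were called in these 3 comparisons, so that 0 of 86 is a share near that background. At an unadjusted p below 0.05, 2, 1 and 1 of the 86 genes passed, against 9.65%, 7.89% and 4.89% of all genes. The fit was also run with the replicate number as a block (the replicate block). It called 0.992%, 0.303% and 0% of all genes and still none of the 86. At an unadjusted p below 0.05 it passed 4, 3 and 3 of the 86, against 1752, 1490 and 944 of all 15529 genes.

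Differences of the 86 genes were small in every comparison. Their median was 0.02 between CX3CR1high and CX3CR1low cells, -0.04 between CX3CR1high and CX3CR1int, and 0.06 between CX3CR1int and CX3CR1low, against 0.01, 0.00 and 0.01 over all genes tested. Leaving out single samples turned the sign of each median, which then ranged from -0.05 to 0.133, from -0.17 to 0.09 and from -0.06 to 0.203 in these comparisons. The full range was -0.67 (Sdhaf4) to 0.87 (Cox6b2) in the first comparison, and no gene reached 2-fold in any. Intervals bound what could have been missed. In the comparison of CX3CR1high with CX3CR1low cells, the 95% interval of the difference lay within 2-fold either way for 81 of the 86 genes (94.2%, and 90.2% of all genes), and for 82 in each of the other comparisons. The 5 exceptions between CX3CR1high and CX3CR1low were Cox6b2, Sdhaf4, Ndufb11, Cox7a1 and Atp5j2. Intervals are those of single genes, without adjustment for their number. CX3CR1int cells had the highest of the 3 subset means for 38 of the 86 genes (44.2%, and 31.8% of all genes). CX3CR1high cells had it for 26 (30.2%, and 36.6% of all genes) and CX3CR1low cells for 22 (25.6%, and 31.6%). The CX3CR1int samples were far from alike. Over the 86 genes, the median deviation from the gene mean was -0.09 in CX3CR1int sample 1 and 0.15 in CX3CR1int sample 2, the lowest and the highest of the 6 samples.

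**Figure D1:**
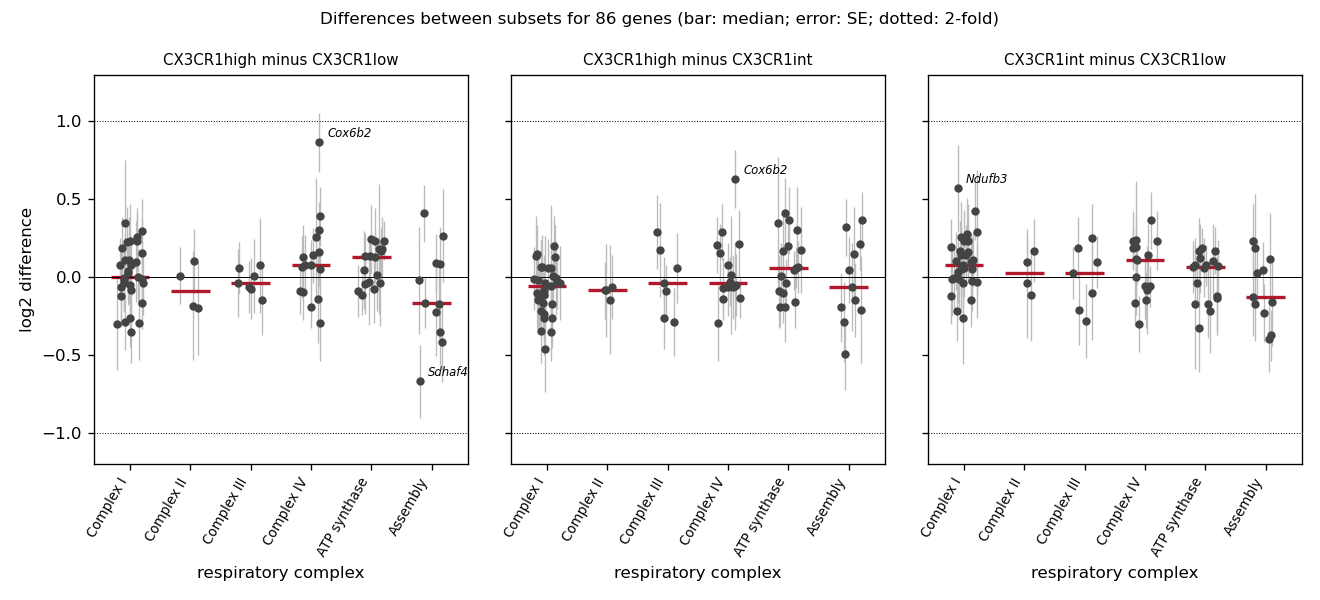
Log2 difference of each of the 86 genes (points, with SE) by respiratory complex, in the 3 comparisons of sorted subsets with 2 samples each; red bars are medians and dotted lines mark 2-fold. All points lie between the dotted lines, and Cox6b2 of complex IV stands highest in both comparisons that contain CX3CR1high cells.

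Complex I, which oxidises NADH, was represented by 31 tested genes. None was called, and the median difference was 0.00 between CX3CR1high and CX3CR1low cells, -0.06 between CX3CR1high and CX3CR1int, and 0.08 between CX3CR1int and CX3CR1low. The 6 tested core subunits that carry the flavin and iron-sulphur centres or line the way to ubiquinone (Ndufs1, Ndufs3, Ndufs7, Ndufs8, Ndufv1 and Ndufv2) had differences between -0.35 and 0.16 in CX3CR1high against CX3CR1low cells, 5 of them below 0. Ndufs7, the iron-sulphur subunit next to the ubiquinone site, had log2 signals of 7.01 and 7.07 in CX3CR1high, 7.46 and 7.31 in CX3CR1int and 7.63 and 7.15 in CX3CR1low samples. Both CX3CR1high samples lay below all others, yet the difference of -0.35 ± 0.21 (SE) from CX3CR1low cells did not pass (adjusted p = 0.657). It was -0.11 without CX3CR1low sample 1 and -0.59 without CX3CR1low sample 2. Ndufs8, another iron-sulphur subunit, was at 8.40 and 8.37 in CX3CR1high and 8.27 and 8.10 in CX3CR1int samples, a difference of 0.20 ± 0.19 (SE, adjusted p = 0.853), and the CX3CR1low samples (8.62 and 8.19) spanned both.

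Of the 31 complex I genes, 7 were lower and 0 higher in CX3CR1high than in CX3CR1low cells without overlap of samples. Of all genes 18.4% and 19.8% did so, and of all 86 genes 13 were lower and 12 higher. By mean, 15 of the 31 differences lay above 0 and 15 below. Complex I genes also shifted together between replicates. Replicate 2 was the higher for 28 of the 31 in CX3CR1high and replicate 1 for 23 in CX3CR1low cells, so the 7 are not separate observations. The 7 were Ndufs3, Ndufs7, Ndufv3, Ndufa3, Ndufa7, Ndufa13 and Ndufc1. Between CX3CR1int and CX3CR1low cells the split for complex I was 6 higher and 0 lower, against 16.6% and 14.8% of all genes. For all 86 genes it was 13 higher and 4 lower.

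Ndufb3, an accessory subunit of the membrane arm, showed the largest complex I difference from CX3CR1int cells. Its log2 signal was 6.90 and 7.76 in CX3CR1high, 7.79 and 7.79 in CX3CR1int and 7.04 and 7.40 in CX3CR1low samples. CX3CR1int samples were the highest, and the CX3CR1high samples lay far apart. The difference was 0.57 ± 0.28 (SE) in CX3CR1int against CX3CR1low cells (adjusted p = 0.996) and -0.46 ± 0.28 (SE) in CX3CR1high against CX3CR1int cells (adjusted p = 0.739). Without the CX3CR1high sample 2 the second of these was -0.89, and without the CX3CR1high sample 1 it was -0.03. Ndufa9, an accessory subunit that helps to hold the ubiquinone-binding region, had the same order of subsets, with differences of 0.43 and -0.35 that did not pass either. Ndufb11, a membrane arm subunit encoded on the X chromosome, had the widest interval of complex I, -0.56 to 1.26 between CX3CR1high and CX3CR1low cells, and its CX3CR1low samples stood at 7.05 and 5.55.

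**Figure D2:**
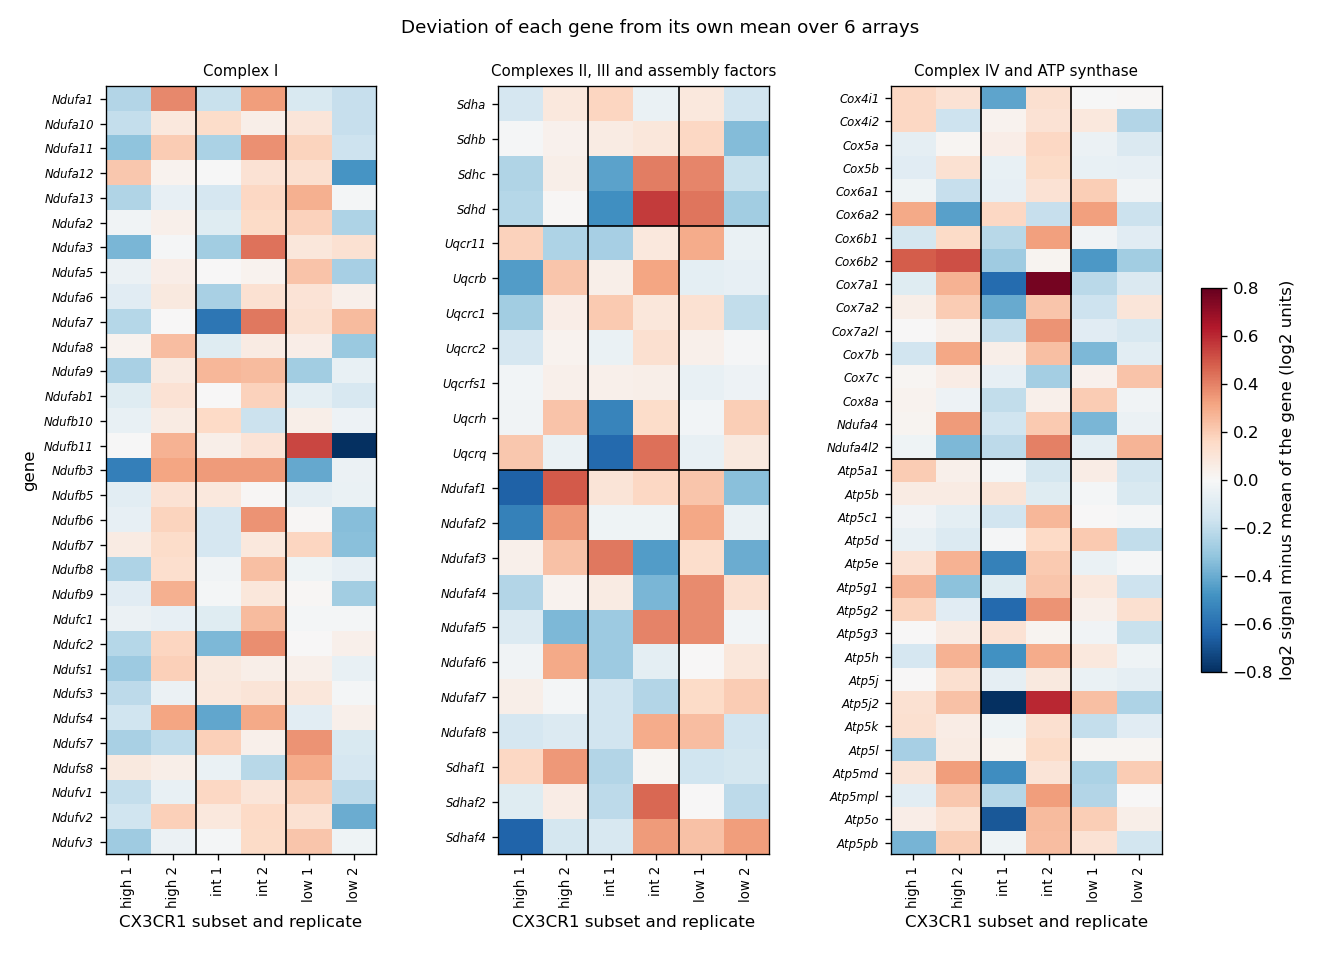
Log2 signal of each of the 86 genes minus its own mean over the 6 arrays, with samples in columns (CX3CR1high, CX3CR1int, CX3CR1low, 2 replicates each) and genes in rows by complex; signals past the ends of the scale take the end colours. Columns of the same subset often differ in colour, as for Sdhc, Sdhd, Uqcrq and Atp5o in the CX3CR1int samples, and Cox6b2 is among the few rows whose colour follows the subset.

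Complex II, or succinate dehydrogenase, was measured in full, and its 4 genes did not differ by the test. Sdha, the flavoprotein that oxidises succinate, had log2 signals of 8.08 and 8.30 in CX3CR1high, 8.39 and 8.16 in CX3CR1int and 8.30 and 8.06 in CX3CR1low samples. All subsets overlapped, and the difference of 0.01 between CX3CR1high and CX3CR1low cells had a 95% interval of -0.41 to 0.43. Sdhb, the iron-sulphur subunit, differed by 0.11 with an interval of -0.36 to 0.57. It was lower in both CX3CR1high samples (7.52 and 7.56) than in both CX3CR1int samples (7.59 and 7.62), by 0.07, a gap smaller than its SE of 0.20.

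Sdhc and Sdhd, the membrane anchors of complex II, varied more within subsets than between them. Sdhd was at 6.86 and 7.10 in CX3CR1high, 6.60 and 7.65 in CX3CR1int and 7.52 and 6.81 in CX3CR1low samples. Sdhc was at 7.92 and 8.21 in CX3CR1high, 7.73 and 8.57 in CX3CR1int and 8.55 and 7.98 in CX3CR1low samples. For both genes CX3CR1int sample 1 was the lowest of the 6 and CX3CR1int sample 2 the highest. Intervals were accordingly wide, -0.98 to 0.61 for Sdhd and -0.88 to 0.48 for Sdhc between CX3CR1high and CX3CR1low cells.

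Of the 12 assembly factors 11 were tested, none was called, and the median difference between CX3CR1high and CX3CR1low cells was -0.17, with 4 above 0 and 7 below. Sdhaf4, which helps the flavoprotein Sdha to join Sdhb, had log2 signals of 5.30 and 5.80 in CX3CR1high, 5.81 and 6.28 in CX3CR1int and 6.17 and 6.27 in CX3CR1low samples. Both CX3CR1high samples lay below all others, the upper of them by only 0.01 on this scale. The difference from CX3CR1low cells was -0.67 ± 0.23 (SE, adjusted p = 0.379, and 0.195 with the replicate block), and that from CX3CR1int cells -0.50 ± 0.23 (SE, adjusted p = 0.646). Without the CX3CR1high sample 1 the difference from CX3CR1low cells was -0.42, and without the CX3CR1high sample 2 it was -0.92.

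Sdhaf1, which guards the iron-sulphur centres of Sdhb as they are inserted, was set the other way. Its log2 signal was 6.72 and 6.90 in CX3CR1high, 6.32 and 6.57 in CX3CR1int and 6.39 and 6.41 in CX3CR1low samples. CX3CR1high samples were the highest, by 0.41 ± 0.18 (SE, adjusted p = 0.520) over CX3CR1low and 0.37 ± 0.18 (SE, adjusted p = 0.672) over CX3CR1int cells. A second, dimmer probe set of Sdhaf1 gave 0.24 and 0.43 for the same comparisons. Sdhaf2, which aids the attachment of flavin to Sdha, differed by 0.09 between CX3CR1high and CX3CR1low cells. Among complex I assembly factors, Ndufaf5 was at 5.24 and 4.99 in CX3CR1high, 5.06 and 5.75 in CX3CR1int and 5.73 and 5.33 in CX3CR1low samples, and the CX3CR1high samples lay below the CX3CR1low samples, with a difference of -0.42 ± 0.26 (SE, adjusted p = 0.674). Ndufaf4 was at 6.38 and 5.95 in CX3CR1int against 6.69 and 6.44 in CX3CR1low samples, a difference of -0.40 ± 0.21 (SE, adjusted p = 0.996). Ndufaf7, a methyltransferase needed for complex I assembly, was the only 1 of the 86 genes under an unadjusted p of 0.05 between CX3CR1int and CX3CR1low cells (-0.38 ± 0.16, SE, adjusted p = 0.996).

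Complex III, the cytochrome bc1 complex, had 7 tested genes, and its differences between CX3CR1high and CX3CR1low cells were the narrowest of the complexes, from -0.15 to 0.08 with a median of -0.04. Uqcrfs1, the Rieske iron-sulphur protein, was at 6.71 and 6.77 in CX3CR1high, 6.77 and 6.78 in CX3CR1int and 6.67 and 6.69 in CX3CR1low samples. The CX3CR1high samples lay above both CX3CR1low samples by 0.06 on average, well below the SE of 0.17 (adjusted p = 0.948). Uqcrc1, a core protein on the matrix side, was at 7.87 and 8.20 in CX3CR1high and 8.36 and 8.24 in CX3CR1int samples, a difference of -0.27 ± 0.20 (SE, adjusted p = 0.809). Uqcrb, a small subunit near the ubiquinone site, was at 9.85 and 10.12 in CX3CR1int and 9.73 and 9.74 in CX3CR1low samples, a difference of 0.25 ± 0.22 (SE, adjusted p = 0.996). A probe set shared by Uqcrb and the predicted gene Gm10767 differed by -0.16 in that comparison, opposite in sign. In Uqcrq the CX3CR1int samples stood at 7.99 and 9.05, a wider gap than that between any 2 subset means of this gene.

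Complex IV, cytochrome c oxidase, held the gene with the largest difference of all 86. Cox6b2, the testis-type isoform of a subunit on the side where cytochrome c docks, had log2 signals of 6.97 and 7.0 in CX3CR1high, 6.20 and 6.51 in CX3CR1int and 6.03 and 6.21 in CX3CR1low samples. Both CX3CR1high samples stood above all others. The difference was 0.87 ± 0.19 (SE) between CX3CR1high and CX3CR1low cells, 1.82-fold (adjusted p = 0.131), and 0.63 ± 0.19 (SE) between CX3CR1high and CX3CR1int cells, 1.55-fold (adjusted p = 0.404). With the replicate block the adjusted p was 0.0798 and 0.284. Leaving out any single sample kept the first difference between 0.78 and 0.96. Its 95% interval, 0.44 to 1.29, covers a single gene picked as the largest of many, and the adjusted p is the value that allows for the number of genes.

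Cox6b1, the isoform of the same subunit found in most tissues, did not share this order. It was at 9.67 and 9.96 in CX3CR1high, 9.59 and 10.14 in CX3CR1int and 9.78 and 9.72 in CX3CR1low samples. All subsets overlapped, and the CX3CR1high and CX3CR1low means differed by 0.07 (95% interval -0.39 to 0.52). Markers of germ cells were not examined. The part of other cells in the Cox6b2 signal was not tested.

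**Figure D3:**
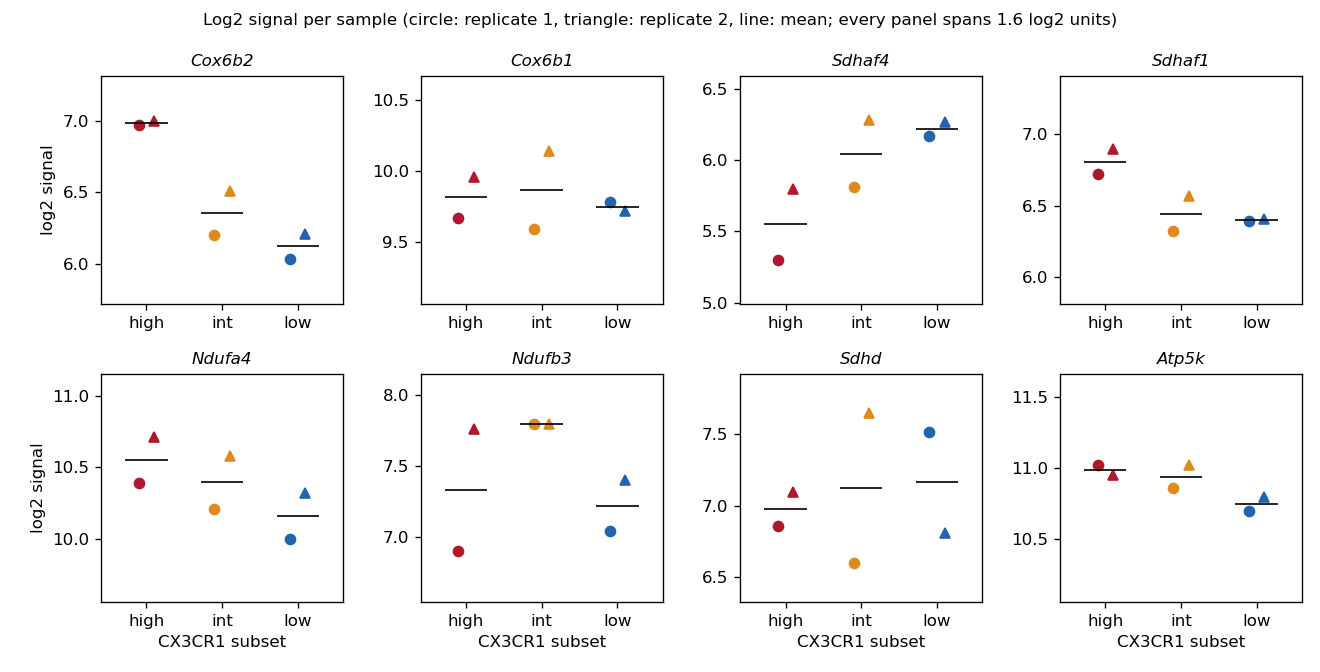
Log2 signal of 8 genes in each sample by CX3CR1 subset; circles are replicate 1, triangles replicate 2 and lines subset means, and each panel spans the same height in log2 units. Cox6b2 separates the CX3CR1high samples (6.97 and 7.0) from the rest, Cox6b1 does not, and Sdhd spreads from 6.60 to 7.65 within CX3CR1int cells.

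Promoter sequence is shown for Cox6b2 and Cox6b1, which differ in their order across subsets, and for Cox6a1 and Atp5k, 2 genes whose promoters hold the NRF1 letters. Each line gives the 250 bases before the gene's start in RefSeq (GRCm38.p6), 5′ to 3′ on the strand of the gene, with matches to the motifs searched in capitals:
Cox6b2, chr7:4753095-4753344, minus strand: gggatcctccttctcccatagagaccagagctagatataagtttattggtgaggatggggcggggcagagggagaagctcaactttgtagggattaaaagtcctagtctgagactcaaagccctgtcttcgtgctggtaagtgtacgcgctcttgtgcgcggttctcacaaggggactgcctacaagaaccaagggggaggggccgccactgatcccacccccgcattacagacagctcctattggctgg
Cox6b1, chr7:30626115-30626364, minus strand: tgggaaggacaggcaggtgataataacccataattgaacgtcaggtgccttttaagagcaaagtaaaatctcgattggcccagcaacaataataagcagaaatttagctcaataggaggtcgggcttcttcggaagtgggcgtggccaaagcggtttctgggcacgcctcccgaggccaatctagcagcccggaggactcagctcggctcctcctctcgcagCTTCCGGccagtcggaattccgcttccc
Cox6a1, chr5:115348959-115349208, minus strand: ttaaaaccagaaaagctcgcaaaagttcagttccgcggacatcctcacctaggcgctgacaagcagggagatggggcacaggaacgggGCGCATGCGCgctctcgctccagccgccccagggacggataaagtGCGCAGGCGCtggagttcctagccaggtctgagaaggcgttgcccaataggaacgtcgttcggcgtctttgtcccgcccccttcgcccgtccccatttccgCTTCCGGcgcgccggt
Atp5k, chr5:108434400-108434649, minus strand: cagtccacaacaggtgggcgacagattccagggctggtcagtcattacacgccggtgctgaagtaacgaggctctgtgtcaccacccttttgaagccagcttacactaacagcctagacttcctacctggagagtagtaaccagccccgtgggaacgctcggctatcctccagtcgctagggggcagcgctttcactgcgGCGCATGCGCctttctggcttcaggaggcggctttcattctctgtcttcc
Capitals mark NRF1 letters, GCGCA, any base and then GCGC, or ETS letters, CCGGAAG, on either strand. AAGATGGCG for YY1 and TNAAGGTCA for ERR were also searched, and no match to different motifs overlapped in these 4 windows. Cox6b2 held no match to any of the 4 motifs, Cox6b1 held the ETS letters 28 bases before its start, Atp5k held NRF1 letters 50 bases before it, and Cox6a1 held NRF1 letters at 2 places and the ETS letters once. A match is a description and not a shown binding site.

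Promoter windows were found for 76 of the 93 genes, 81 windows in all. NRF1 letters stood in 13 of them (16.0%), against 3.74% of 32851 windows of all genes and 5.18% of those of protein-coding genes. ETS letters stood in 16 (19.8%), against 6.91% and 8.98%. The YY1 and ERR letters stood in 1 window each (1.2%), against 0.606% and 1.14% of all windows. The windows also differed in base composition, with a median of 57.2% G and C and 15 CpG pairs, against 52.4% and 6 in all windows and 55.6% and 10 in those of protein-coding genes, and the part of composition in these shares was not tested. By complex, NRF1 letters stood in windows of 4 of 29 complex I, 2 of 3 complex II, 0 of 4 complex III, 1 of 14 complex IV, 4 of 15 ATP synthase and 1 of 11 assembly factor genes.

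Other isoform pairs of complex IV gave no difference by the test. Cox4i1, the form of subunit 4 in most tissues, was at 10.91 and 10.86 in CX3CR1high, 10.32 and 10.87 in CX3CR1int and 10.74 and 10.75 in CX3CR1low samples. Its low CX3CR1int sample 1 stood apart, and the CX3CR1high samples were both above the CX3CR1low samples, by 0.14 on average (95% interval -0.26 to 0.54). Cox4i2, the form linked to lung and hypoxia, ranged from 5.09 to 5.49 over all samples. Cox6a1, the widespread form of subunit 6a, was at 11.36 and 11.21 in CX3CR1high and 11.59 and 11.37 in CX3CR1low samples, a difference of -0.20 ± 0.13 (SE, adjusted p = 0.709), and its heart and muscle form Cox6a2 differed by -0.14 (95% interval -0.78 to 0.50).

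Cox7a1, the heart and muscle form of subunit 7a, was at 6.59 and 6.96 in CX3CR1high, 6.07 and 7.45 in CX3CR1int and 6.47 and 6.57 in CX3CR1low samples. Its CX3CR1int samples were the lowest and the highest of the 6. Beside it, the mean of 13 skeletal muscle markers, 3 of them dim, was 4.83 and 4.92 in CX3CR1high, 5.07 and 4.84 in CX3CR1int and 4.68 and 5.27 in CX3CR1low samples. The part of muscle in the Cox7a1 values was not tested. Cox7a2, the widespread form, differed by 0.16 between CX3CR1high and CX3CR1low cells, and Cox7a2l by 0.13.

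Ndufa4, named for complex I but a subunit of complex IV, stood second to Cox6b2 within that complex. It was at 10.39 and 10.71 in CX3CR1high, 10.21 and 10.58 in CX3CR1int and 10 and 10.32 in CX3CR1low samples. Within each replicate number the order was CX3CR1high, CX3CR1int, CX3CR1low, and the samples of CX3CR1high and CX3CR1low cells did not overlap. The difference of 0.39 ± 0.19 (SE) did not pass (adjusted p = 0.558, and 0.265 with the replicate block). Its hypoxia-induced relative Ndufa4l2 differed by -0.30 (95% interval -0.85 to 0.26). Cox7b, a small subunit needed for assembly, was at 10.45 and 10.64 in CX3CR1int and 10.04 and 10.32 in CX3CR1low samples, a difference of 0.37 ± 0.18 (SE, adjusted p = 0.996), while a second, dimmer probe set of Cox7b gave -0.17. Cox7c, another small subunit, was at 6.44 and 6.23 in CX3CR1int and 6.54 and 6.73 in CX3CR1low samples, a difference of -0.30 ± 0.18 (SE, adjusted p = 0.996). Cox5a, which lies on the matrix side, was lower in CX3CR1high than in CX3CR1int samples by 0.14 ± 0.13 (SE, adjusted p = 0.852), and Cox8a, the widespread form of subunit 8, differed by -0.09 between CX3CR1high and CX3CR1low cells.

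The ATP synthase had 17 tested genes, none called, with a median difference of 0.13 between CX3CR1high and CX3CR1low cells, 11 above 0 and 6 below. The catalytic head and the central stalk below it were covered by 5 genes. Their differences in this comparison lay between -0.09 (Atp5d) and 0.23 (Atp5e). Atp5b, the catalytic beta subunit, was at 10.61 and 10.61 in CX3CR1high, 10.65 and 10.45 in CX3CR1int and 10.53 and 10.42 in CX3CR1low samples. The CX3CR1high samples were above the CX3CR1low samples by 0.14 (95% interval -0.17 to 0.44). Atp5a1, the alpha subunit, was at 10.08 and 9.92 in CX3CR1high and 9.86 and 9.74 in CX3CR1int samples, a difference of 0.20 ± 0.15 (SE, adjusted p = 0.817). Atp5d, the delta subunit of the central stalk, was at 10.18 and 10.13 in CX3CR1high and 10.23 and 10.40 in CX3CR1int samples, a difference of -0.16 ± 0.17 (SE, adjusted p = 0.871). Atp5c1, the gamma subunit of the rotor shaft, had much lower signals, 5.63 and 5.58 in CX3CR1high and 5.66 and 5.64 in CX3CR1low samples. It was lower in CX3CR1high samples by 0.05 ± 0.19 (SE, adjusted p = 0.969).

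In the membrane part, Atp5k, subunit e, which helps synthase units to pair, was at 11.02 and 10.95 in CX3CR1high, 10.86 and 11.02 in CX3CR1int and 10.70 and 10.80 in CX3CR1low samples. Both CX3CR1low samples lay below all others. The difference was 0.24 ± 0.13 (SE, adjusted p = 0.618) for CX3CR1high and 0.19 ± 0.13 (SE, adjusted p = 0.996) for CX3CR1int cells. The 3 genes that encode the same mature c subunit of the rotor ring differed by 0.02 (Atp5g1), -0.04 (Atp5g2) and 0.14 (Atp5g3) between CX3CR1high and CX3CR1low cells. Atp5md, a small subunit of the synthase dimer, was at 11.21 and 11.44 in CX3CR1high and 10.61 and 11.21 in CX3CR1int samples, a difference of 0.42 ± 0.22 (SE, adjusted p = 0.697, and 0.322 with the replicate block). Atp5j2, subunit f, had the widest spread of the ATP synthase genes, 4.27 and 5.82 in CX3CR1int samples.

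For complex IV and the ATP synthase together, samples of CX3CR1high and CX3CR1low cells did not overlap for 10 genes that were higher (5 in each). They did not overlap for 2 that were lower (1 in each), where 19.8% and 18.4% of all genes were higher and lower without overlap. Over all 86 respiratory chain and ATP synthase genes the counts were even, with 12 higher and 13 lower. Whether complexes differ from each other in direction was not tested, since their genes share the same 6 samples.

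Most of the 86 genes shifted in the same direction between the 2 samples of a subset. The labels do not say whether a replicate number marks the same litter in every subset. Replicate 2 was above replicate 1 for 66 of the 86 genes in CX3CR1high cells (76.7%, against 47.5% of all genes tested) and likewise for 66 in CX3CR1int cells (76.7%, against 46.8%). In CX3CR1low cells the order was turned, with replicate 2 above replicate 1 for 28 genes (32.6%, against 43.3%). The median of replicate 2 minus replicate 1 was 0.18, 0.22 and -0.11 in CX3CR1high, CX3CR1int and CX3CR1low cells, and -0.01, -0.02 and -0.04 over all genes. In CX3CR1int cells the 2 samples were more than 0.5 apart for 26 of the 86 genes (30.2%, against 11.6% of all genes), and in each of the other subsets for 9 (10.5%).

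Complexes shared this pattern to different degrees. In CX3CR1high cells replicate 2 was the higher for 28 of 31 complex I genes and all 4 complex II genes, but for 10 of 16 complex IV and 10 of 17 ATP synthase genes. In CX3CR1int cells it was the higher for 14 of 16 complex IV and 14 of 17 ATP synthase genes, and the largest gap was that of Atp5j2, 1.55. In CX3CR1low cells replicate 1 was the higher for 23 of 31 complex I and all 4 complex II genes, with Ndufb11 furthest apart at -1.50. Over the 86 genes, the median deviation from the gene mean was -0.07 and 0.07 in CX3CR1high, -0.09 and 0.15 in CX3CR1int and 0.05 and -0.07 in CX3CR1low samples.

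Replicates also differed in sex composition. Xist, the RNA of the inactive X chromosome, had log2 signals of 7.97 and 11.39 in CX3CR1high, 7.61 and 10.99 in CX3CR1int and 7.39 and 11.24 in CX3CR1low samples, and the Y-linked Eif2s3y was high in replicate 1 of each, between 7.76 and 8.27. Beside it, the macrophage marker mean was 10.31 and 10.37 in CX3CR1high, 10.37 and 10.47 in CX3CR1int and 10.42 and 10.30 in CX3CR1low samples. The part of sex or cell composition in the replicate pattern was not tested. Because the spread within subsets is shared by many of these genes, their differences between subsets are not independent of each other either.

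**Figure D4:**
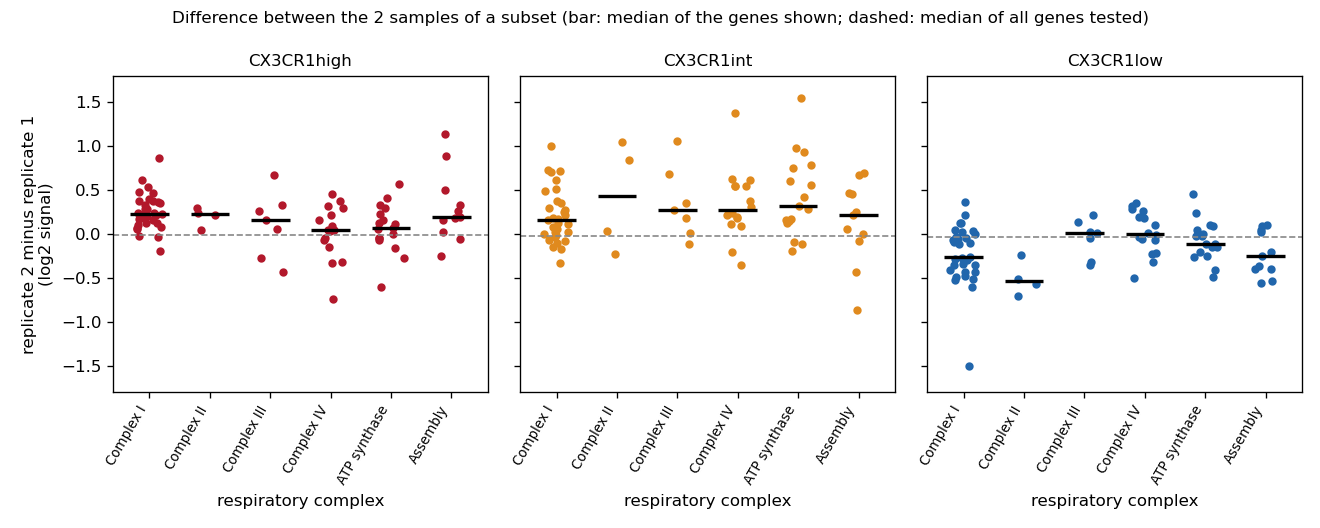
Replicate 2 minus replicate 1 in log2 signal for the 86 genes by complex, within CX3CR1high, CX3CR1int and CX3CR1low cells; black bars are medians of the genes shown and the dashed line is the median of all genes tested. Most points lie above the dashed line in CX3CR1high and CX3CR1int cells, and below it for complexes I and II in CX3CR1low cells.

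Genes that work with the respiratory chain but lie outside the symbol rule were described from 7 lists, with 185 tested genes. None was called in any comparison, and at an unadjusted p below 0.05 there were 11, 8 and 8 of the 185, against the 9.65%, 7.89% and 4.89% of all genes given above. The replicate block called none of them either. Subunits encoded by the mitochondrial genome, which must be matched by the nuclear ones, had 10 tested genes. COX2 of complex IV and ATP6 and ATP8 of the ATP synthase were not among them. Differences of the 10 lay between -0.10 (ND4L) and 0.06 (ND5) in CX3CR1high against CX3CR1low cells. ND5 was at 12.18 and 12.41 in CX3CR1high, 12.23 and 12.33 in CX3CR1int and 12.10 and 12.37 in CX3CR1low samples, and all subsets overlapped. ND4L was at 11.37 and 11.80 in CX3CR1high and 11.57 and 11.79 in CX3CR1low samples.

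Further assembly factors (33 tested) had a median of -0.07 between CX3CR1high and CX3CR1low cells, with Uqcc2 of complex III at 0.41 ± 0.22 (SE, adjusted p = 0.617) and Cmc1 of complex IV at -0.51 ± 0.21 (SE, adjusted p = 0.486). Among 18 electron carriers and further subunits (median 0.07), Higd2a, a factor of complex IV and its supercomplexes, was at 9.18 and 9.16 in CX3CR1high, 9.53 and 9.97 in CX3CR1int and 10.22 and 9.60 in CX3CR1low samples. CX3CR1high samples were the lowest, with a difference of -0.74 ± 0.23 (SE, adjusted p = 0.308) against CX3CR1low. Coq9, of ubiquinone synthesis, differed by 0.32 ± 0.17 (SE, adjusted p = 0.607).

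Of 20 genes of the tricarboxylic acid cycle and pyruvate dehydrogenase (median -0.05), fumarate hydratase (Fh1), which acts next after complex II, was at 7.85 and 7.77 in CX3CR1high, 8.68 and 8.58 in CX3CR1int and 8.72 and 8.25 in CX3CR1low samples. CX3CR1high samples were again the lowest, with differences of -0.68 ± 0.20 (SE, adjusted p = 0.273) against CX3CR1low and -0.82 ± 0.20 (SE, adjusted p = 0.252) against CX3CR1int cells, and Idh3a, a subunit of isocitrate dehydrogenase, differed by 0.43 ± 0.23 (SE, adjusted p = 0.618).

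Regulators of mitochondrial biogenesis (15 tested, median 0.00) included the mitochondrial helicase gene Twnk, which differed by -0.61 ± 0.21 (SE, adjusted p = 0.382) between CX3CR1high and CX3CR1low cells, and Tfam, which packages mitochondrial DNA, at 0.38 ± 0.21 (SE, adjusted p = 0.641). Carriers, import and dynamics genes (19 tested, median -0.05) ran from the fusion gene Mfn2 at -0.49 ± 0.17 (SE, adjusted p = 0.380) to the chaperonin gene Hspe1 at 0.31 ± 0.14 (SE, adjusted p = 0.517). Mitochondrial ribosomal proteins, which translate the mitochondrially encoded subunits, had 70 tested genes with a median of 0.05, from Mrpl3 at -0.43 ± 0.18 (SE, adjusted p = 0.488) to Mrpl13 at 0.59 ± 0.24 (SE, adjusted p = 0.469).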

How the data were processed

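Values deposited by the authors are on the log2 scale. The submitters' processing notes name RMA and version 1.4 of Affymetrix Expression Console, and per the labels' protocols the RNA was amplified as whole transcriptome before it was hybridised. They were used as given, and 0 columns were left unused. The genome build behind the probe sets is not given in the sources used here. Of 34390 probe sets, 23521 carried 1 gene symbol, 1814 several and 9055 none, and for genes with several probe sets the brightest was used. Genes with a mean below the 30th percentile were left out as dim.

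The fit used limma 3.58.1 under R 4.3.3, with a mean for each of 3 subsets over all 6 samples, an intensity trend in the prior (3 residual and 5.77 prior degrees of freedom), two-sided tests, and p-values adjusted by Benjamini-Hochberg across 15529 genes, called at an adjusted p below 0.05. The number of arrays, 2 per subset, limits precision, and all comparisons share samples. Replicate numbers may pair samples. In CX3CR1high, CX3CR1int and CX3CR1low cells Eif2s3y was at 7.76, 7.86 and 8.27 in replicate 1. In replicate 2 it was at 3.57, 3.72 and 2.99, and Xist was higher in replicate 2 of every subset. Deviations from subset means correlated at 0.178, 0.136 and 0.146 between subsets across genes, so the replicate block was run beside each result.

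The genes and lists were chosen with earlier results of these data known. Genes named with values were those with the largest difference in each direction per complex and comparison among genes whose samples did not overlap, the isoform genes, and the largest difference in each direction per list. Ndufa9, Ndufb11, Sdhc, Sdhd, Sdha, Uqcrq, Sdhaf2, Ndufaf7, Atp5b, Atp5e, Atp5j2, Atp5md, Atp5o, Ndufaf5, Krt10, Cpa3, Ndufa11 and Cox5b and the 7 listed complex I genes were added after their values were seen. Genes of the symbol rule whose probe sets carry other symbols too entered no test (Cox6c, Ndufb2, Ndufb4, Ndufb4b, Ndufb4c, Ndufs6 and Uqcr10). Promoter sequences are from RefSeq.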

Additional observations from a re-analysis of the deposited data

How the results depend on the processing

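No respiratory chain or ATP synthase gene was called in any of the 3 comparisons under any of 13 alternatives: the replicate block, no dim filter or one at the 50th percentile, the mean of probe sets, a constant variance prior, quantile normalization, only the 2 subsets compared, and leaving out each sample in turn. The smallest adjusted p among them was 0.0798, that of Cox6b2 with the replicate block. Counts of all genes called between CX3CR1high and CX3CR1low, CX3CR1high and CX3CR1int, and CX3CR1int and CX3CR1low cells were 62, 22 and 1. With the replicate block they were 154, 47 and 0, and without the dim filter 26, 0 and 0. With a constant prior the last 2 were 4 and 0, with quantile normalization 8 and 0, and with only the 2 subsets compared the counts were 39, 14 and 0. Leaving out single samples gave 0 to 39, 0 to 17 and 0 to 0 calls. The median difference of the genes ranged from -0.05 to 0.13, -0.17 (without CX3CR1int sample 1) to 0.09 (without CX3CR1int sample 2) and -0.06 to 0.203 (without CX3CR1int sample 1) on leaving out single samples, against an SD of 0.123 between replicates. Differences picked by size for naming kept their sign under these alternatives except 2 between CX3CR1high and CX3CR1low cells. That of ND5 was -0.075 without CX3CR1low sample 1 and -0.055 without CX3CR1high sample 2, within -0.075 to 0.195 on leaving out single samples. That of ND4L was 0.015 without CX3CR1low sample 2 and 0.12 without CX3CR1high sample 1, within -0.31 to 0.12. A lone sample left in a subset was assumed to vary like the others. Why the counts of all genes move with these choices was not tested. Tfam was left out by the filter at the 50th percentile.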

Other observations

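Several probe sets carry a respiratory gene together with another symbol and entered no comparison. The probe set of Ndufs5 and its pseudogene differed by -0.02 between CX3CR1high and CX3CR1low cells and by 0.34 between CX3CR1high and CX3CR1int, and that of Ndufb4 with its copies Ndufb4b and Ndufb4c by 0.21 and 0.02. Those of Cox6c with Gm6265 differed by 0.03 and 0.20 between CX3CR1high and CX3CR1low cells, that of Uqcr10 with Gm6293 by -0.10, and those of Ndufs6 with Ndufs6b by -0.05 and -0.01. Second probe sets of a gene could differ in sign from the one used: that of Ndufa11 gave 0.25 between CX3CR1high and CX3CR1int cells, against -0.12 for the one used, and that of Cox5b gave -0.10 between CX3CR1high and CX3CR1low cells, against 0.08.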
